A study of Mus musculus with 4 samples.

Results

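Vascular smooth muscle nuclei of the mouse heart were selected on their own transcripts, as 85 of the 20609 nuclei kept from 4 single-nucleus RNA libraries. A kept nucleus had at least 500 unique molecular identifiers (UMIs, which count single RNA molecules) and at most 5% of them from mitochondrial genes. A member had less than 3% of its UMIs from 7 cardiomyocyte genes (Ttn, Myh6, Ryr2, Tnnt2, Actn2, Mybpc3 and Ctnna3). It also had at least 3 UMIs from at least 2 of the markers Myh11, Acta2, Tagln, Cnn1 and Lmod1, and no UMI of Csf1r, Cdh5 or Pdgfra, which mark macrophages, endothelium and fibroblasts. The control libraries gave 6 members of 2996 kept nuclei and 22 of 6425, and the libraries labelled cKO gave 18 of 3894 and 39 of 7294. The libraries were made on the BD Rhapsody platform, which tags RNA in microwells. Control mice were MCM cre/+ and the others PKP2fl/fl MCM cre/+, where MCM names a tamoxifen-inducible Cre that is driven in cardiomyocytes. The mice were labelled as 8 weeks old, all received tamoxifen with hearts taken 2 weeks later, and each library pooled 2 hearts, 1 of each sex. The genotype label of the controls reads wild type although their title names the Cre, and the cell type label reads cardiomyocyte in all 4 libraries.

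Vascular smooth muscle forms the contractile wall of arteries, arterioles and veins, including the coronary vessels. Its tone is set by calcium entry, by phosphorylation of the myosin light chain, and by potassium channels that limit depolarisation. Pericytes lie along capillaries, share many genes with smooth muscle, and grade into it on the smallest arterioles. Because the Cre acts in cardiomyocytes, the smooth muscle of these hearts is not itself the cell type in which Pkp2 was targeted.

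The members held few molecules. Their summed UMIs were 8175 and 42901 in the control libraries and 40119 and 90011 in those labelled cKO, and the median UMIs per member were 1270, 1778.5, 2074.5 and 2204 in the same order. Control 1 therefore rested on 6 shallow nuclei. Libraries shared 4 barcodes in all, and no member carried a shared barcode. Pkp2, which encodes the desmosome protein plakophilin 2, gave 0 and 2 counts in control members and 0 and 4 in members labelled cKO. In nuclei with at least 3% cardiomyocyte UMIs Pkp2 stood at 545 and 522 CPM (counts scaled to a common library sum) in the controls and at 606 and 573 CPM in the others, so its counts did not check the label, and where the deleted exons lie relative to the counted reads was not tested. Esr1, part of whose coding sequence such a Cre transgene carries, stood at 88.0 and 67.6 CPM in control and 3622 and 3293 CPM in cKO nuclei of that kind, so that any difference in the transgene and loss of Pkp2 cannot be told apart. Among members Esr1 had 1, 1, 3 and 32 counts, of which 23 came from 1 nucleus of cKO 2, and the growth hormone gene Gh had 0, 0, 1 and 1. The pools are labelled as holding a female heart each, yet Xist gave 7, 22, 13 and 28 UMIs over whole libraries, against 5625, 13669, 9053 and 17307 UMIs of 4 Y-linked genes.

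The markers that chose the members are described here without a test. Myh11, the smooth muscle myosin heavy chain, measured 2936 and 3566 CPM in control and 2094 and 2511 CPM in cKO members, and had a UMI in 81 of the 85. Acta2, smooth muscle alpha-actin, measured 1101, 1212, 1645 and 1233 CPM in the same order. Lmod1, a leiomodin that nucleates actin filaments, measured 612, 979, 573 and 611 CPM, and Tagln, the actin-binding protein transgelin, measured 489, 303, 424 and 367 CPM. Cnn1, the calponin that marks mature contractile cells, had no count in either control library and 25 and 56 CPM in the cKO libraries, from 4 nuclei in all. Myh11 was lower and Acta2 higher in both cKO libraries than in both controls, Lmod1 was nearly equal in control 1 and cKO 2, and the groups overlapped for Tagln. Pericytes, taken as nuclei outside the rule with at least 3 UMIs from at least 2 of 6 pericyte genes, held 62 to 130 CPM of the 5 markers together, against 4761 to 6060 CPM in members. At the edge of the rule, 11 members had 3 marker UMIs and 6 had 4, while 18 nuclei with 2 UMIs in 2 genes and 12 nuclei with 3 or more UMIs of a single marker fell just outside. A further 29 nuclei met the marker requirement but held Csf1r, Cdh5 or Pdgfra. Another 14 met it but exceeded the cardiomyocyte limit, namely 0 and 10 in control and 1 and 3 in cKO. Ctnna3, which that limit counts, averaged 5028 CPM in members, 734 CPM in pericytes and 3702 CPM in all other kept nuclei.

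**Figure D1:**
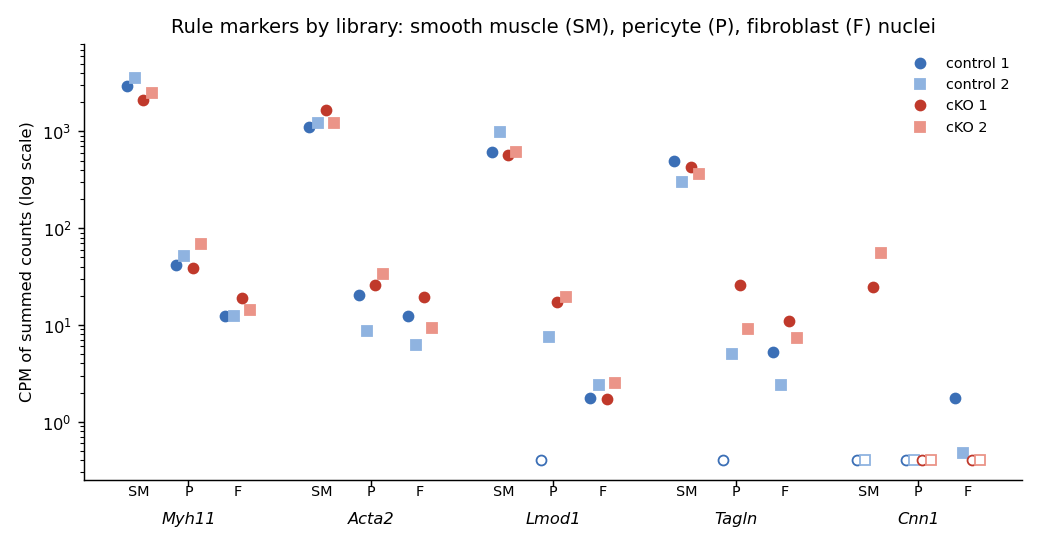
CPM of the 5 markers used to choose the members, in the summed counts of smooth muscle, pericyte and fibroblast nuclei of each library, on a log axis; hollow symbols stand for no count. Myh11 lies between 2094 and 3566 CPM in smooth muscle nuclei of the 4 libraries.

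The label was checked on genes outside the rule. A list of 10 further smooth muscle genes, among them Myl9, Mylk, Tpm2 and Itga8, summed to 5505 and 5921 CPM in control and 4038 and 4477 CPM in cKO members, and to 1138 to 1611 CPM in pericytes. A list of 30 contractile genes without the markers summed to 29480, 33030, 25250 and 26430 CPM in members, against 9219 to 9741 CPM in pericytes. Both lists hold genes of heart muscle. In nuclei with at least 3% cardiomyocyte UMIs the 10 genes summed to 3164 to 3289 CPM and the 30 to 16794 to 19880 CPM. Of the 10, Pln had a UMI in 31.8% of members, 30.5% of pericytes and 29.3% of fibroblasts, and Kcnmb1 in 3 of the 85. Myocd, the transcriptional coactivator of the contractile programme, had a UMI in only 5 of the 85. Genes that led the members over all other kept nuclei, outside the rule, were, in order of the ratio, Or51e2, a receptor of the olfactory family, Ccdc3, a secreted protein, Kcnab1, a potassium channel beta subunit, and Slc38a11, a putative amino acid transporter. Kcnab1 averaged 3441 CPM in members, 118 CPM in pericytes and 34.6 CPM in fibroblasts. Or51e2 averaged 525, 9.77 and 2.16 CPM in the same order, and Slc38a11 averaged 922, 57.8 and 4.03 CPM. Over pericytes alone the leading named genes were Kcnma1 (512 against 2.87 CPM), the basement membrane collagen Col4a6 (247 against 3.00 CPM), Ccdc3 (584 against 7.86 CPM) and the cadherin Cdh6 (312 against 4.44 CPM). These levels describe a set that was selected on the same nuclei.

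RNA of other cell types was present and differed between types. The 10 pericyte genes summed to 2936 and 1818 CPM in control and 1221 and 1844 CPM in cKO members, against 6694 to 8012 CPM in pericytes. The 10 fibroblast genes summed to 2446, 1212, 1994 and 1311 CPM with Lum at 0, and 12 cardiomyocyte genes outside the rule summed to 4404, 4336, 4013 and 3855 CPM. The 10 endothelial genes summed to 856, 1189, 897 and 1578 CPM. Macrophage genes ranged from 100 to 573 CPM with C1qa and Cx3cr1 at 0. Wt1, Upk3b, Msln and Muc16 of the epicardium were at 0. Of 4 lymphocyte genes Cd3e and Ms4a1 were at 0, and the others gave 2 counts in control 2 and 3 in cKO 2. With each nucleus thinned to 500 UMIs, Myh11 had a UMI in 62.4% of members, 2.90% of pericytes and 0.38% of fibroblasts, and the unthinned shares were 95.3%, 6.58% and 1.24%. Myh11 is a marker of the rule, and both other sets were taken from nuclei outside it. This contrast therefore follows from the choice of nuclei, thinned or not.

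The 85 nuclei were not uniform. In 38 of them, namely 2, 7, 8 and 21 by library, the pericyte requirement was met as well as the smooth muscle rule. These 38 nuclei had 871 CPM of Rgs5, a G-protein regulator that is high in pericytes, and 2014 CPM of Notch3, the receptor through which mural cells read Notch ligands on endothelium. The other 47 had 101 and 1041 CPM of these genes. Acta2 measured 1034 CPM in the 38 and 1600 CPM in the 47, and Itga8, the alpha-8 integrin of smooth muscle, measured 425 and 1164 CPM, while Myh11 was closer at 2537 and 2842 CPM. Rgs5 is one of the genes that made this division, so its difference follows from it. Median UMIs per nucleus were 2353.5 in the 38 and 1825 in the 47.

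**Figure D2:**
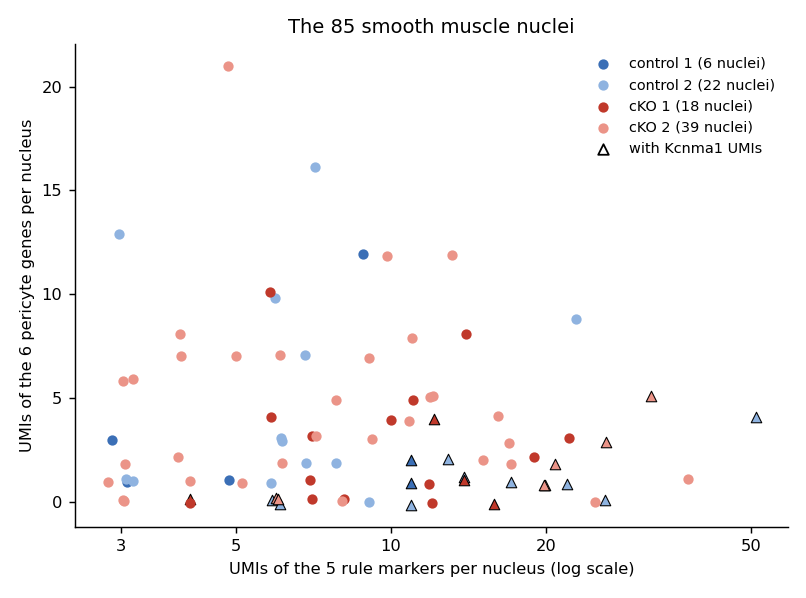
UMIs of the 6 pericyte genes against UMIs of the 5 rule markers in each of the 85 smooth muscle nuclei, coloured by library, with small random offsets; triangles are nuclei with Kcnma1 UMIs. Of the 22 triangles, 4 meet the pericyte requirement.

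Another division ran along Kcnma1, the pore subunit of the large-conductance calcium-activated potassium channel, which opposes contraction; it was chosen after its values were seen and has no test. Kcnma1 UMIs were present in 22 members, of which 4 also met the pericyte requirement, against 34 of the 63 members without them. Median UMIs per nucleus were 2012.5 and 1891. The 30 contractile genes outside the rule summed to 40824 CPM in the 22 nuclei and 23150 CPM in the other 63. Of the rule's own markers, Myh11 measured 4382 against 2070 CPM and Acta2 1695 against 1174 CPM, whereas Cnn1 had 0 counts in the 22 and 6 in the 63. The 22 nuclei held 2542 against 1024 CPM of the myosin light chain kinase gene Mylk. They also held 6718 against 2010 CPM of Sorbs2, an adaptor between actin and adhesion sites, 1757 against 437 CPM of Itga8, 1199 against 226 CPM of Ccdc3, 1096 against 339 CPM of the Z-band gene Ldb3 and 1282 against 414 CPM of Ltbp1, which stores latent TGF-beta in matrix. The 63 nuclei without Kcnma1 UMIs held more Rgs5 (655 against 41.4 CPM), Abcc9 (474 against 62.0 CPM), the sulfonylurea receptor of vascular potassium channels, and Ano1 (918 against 62.0 CPM), a calcium-activated chloride channel. They held more of the transcription factor Zeb2 (1709 against 289 CPM) and of Notch3 (1762 against 910 CPM). Kcnab1 was similar on both sides of the division, at 3845 and 3508 CPM.

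**Figure D3:**
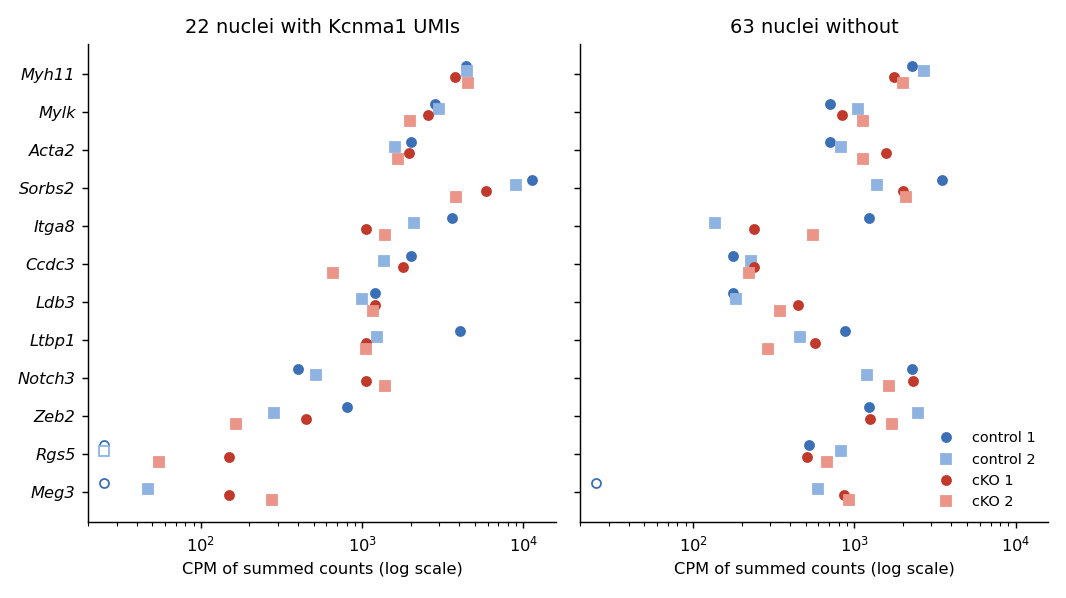
CPM of 12 genes in the summed counts of members with Kcnma1 UMIs (left) and without (right), by library on a log axis; hollow symbols stand for no count. Acta2 and Myh11 of the 22 nuclei on the left differ little between libraries, while Sorbs2 spans 3816 to 11249 CPM there.

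Smooth muscle nuclei made up 0.200% of kept nuclei in control 1 (exact 95% binomial interval 0.0735% to 0.435%) and 0.342% in control 2 (0.215% to 0.518%). The share was 0.462% in cKO 1 (0.274% to 0.730%) and 0.535% in cKO 2 (0.380% to 0.730%). Both cKO libraries lay above both controls, with a log2 ratio of 0.92, taken here as the difference between the groups' mean log2 shares. Yet the exact two-sided permutation test over libraries gave p = 0.333, the smallest that 2 libraries a group allow. These shares leave out the 14 nuclei that met the marker requirement but exceeded the cardiomyocyte limit, 10 of them in control 2. Whether the order of the libraries holds with those nuclei included was not tested. Over nuclei under 3% cardiomyocyte UMIs the shares were 0.452% and 0.633% against 0.724% and 0.725%, a log2 ratio of 0.44. When members with more than 1 UMI of 8 fibroblast genes were left out, the log2 ratio was 0.40 and the libraries overlapped (exact permutation p = 0.667), as they did with up to 20% mitochondrial UMIs allowed (log2 ratio 0.30, p = 0.667). Of the 85 members, 42 had more than 1 such fibroblast UMI, namely 2, 9, 11 and 20 by library. With nuclei thinned to 500 UMIs before the rule was applied the log2 ratio was 1.84 (exact permutation p = 0.333). That choice left 1 and 8 members in control and 8 and 19 in cKO, so its ratio leans on 1 nucleus of control 1. Pericytes alone had a log2 ratio of -0.47 (exact permutation p = 0.333), and members and pericytes together one of -0.38 (exact permutation p = 0.667). Intervals cover counting error only, and a change in smooth muscle cannot be told apart from a change in how many other nuclei were recovered. Nuclei were sorted by fluorescence, and the labels' protocol describes a check of a gate for neuronal nuclei; how the gate bore on heart nuclei was not tested.

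**Figure D4:**
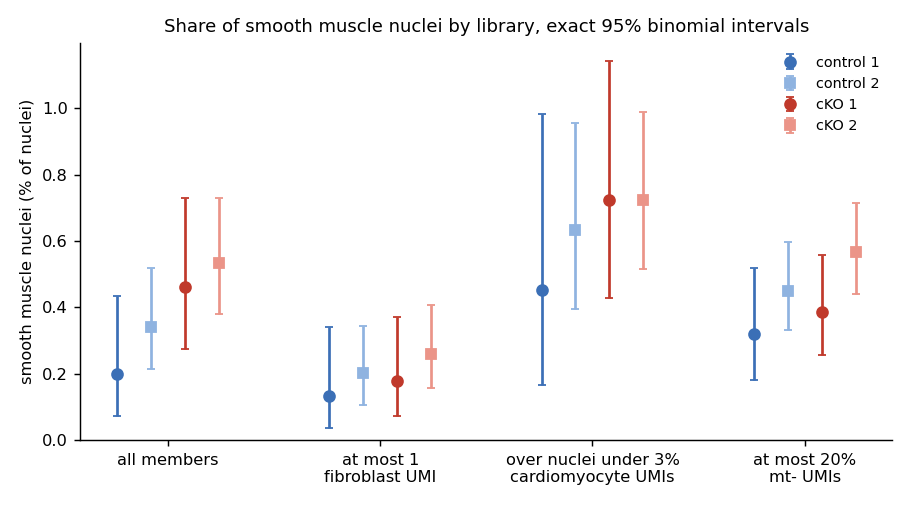
Share of smooth muscle nuclei in percent for each library, with exact 95% binomial intervals, for all members and under 3 other choices of members or denominator. Intervals of the control and cKO libraries overlap in every choice shown.

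No gene passed the comparison of cKO with control smooth muscle nuclei. Counts were summed per library and tested with edgeR's quasi-likelihood test, with Benjamini-Hochberg adjustment over the 838 genes that passed edgeR's expression filter, and a call required an adjusted p under 0.05. No gene was called higher and none lower (0.0% of 838). An unadjusted p under 0.05 was found for 34 genes (4.06%), 15 of them higher and 19 lower in cKO. DESeq2, run without that filter on 13945 genes, called 0 genes, with 12 of the 13945 at an unadjusted p under 0.05. The groups did not overlap for 282 of the 838 genes (33.7%). The separate hearts of a pool cannot be told apart, so the test measures the spread between 2 pools a group.

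Kcnma1 (GRCm38 chromosome 14, 23289431 to 24014491) had the smallest p. Its summed counts were 4 and 51 in control and 6 and 20 in cKO members, which is 489 and 1189 CPM against 150 and 222 CPM. Both cKO libraries lay below both controls. The log2 fold change was -2.23 (SE 0.51, edgeR adjusted p = 0.535). Kcnma1 UMIs were found in 2 of 6 and 9 of 22 control members and in 4 of 18 and 7 of 39 cKO members, and no nucleus held more than 10 of them. Without control 1, whose members were fewest, edgeR called it at -2.50 (adjusted p = 0.00260), and without control 2 the value was -1.04 (adjusted p = 0.796), a smaller difference than with all 4 libraries. After removal of likely doublets edgeR called it as well (-2.32, adjusted p = 0.0282). That removal took out 1 member, a control 1 nucleus of 2368 UMIs without Kcnma1 UMIs. The summed UMIs of control 1 fell from 8175 to 5807 with its 4 Kcnma1 counts kept, so the call turned on that nucleus.

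Sorbs2 (chromosome 8, 45507788 to 45827906) measured 5872 and 5105 CPM in control and 2642 and 2433 CPM in cKO members, with no overlap between the groups. Its log2 fold change was -0.98 (SE 0.29, edgeR adjusted p = 0.979). Sorbs2 is also a heart muscle gene. In nuclei with at least 3% cardiomyocyte UMIs it measured 2525 and 2953 CPM in control and 4005 and 4703 CPM in cKO libraries (log2 fold change 0.61, edgeR adjusted p = 0.140), the other direction from members. In those nuclei Enah was called higher in cKO (log2 fold change 0.96, edgeR adjusted p = 0.0137). In members the cardiomyocyte sums given above were 4404 and 4336 CPM in control and 4013 and 3855 CPM in cKO; their part in the difference of Sorbs2 was not tested. Itga8 measured 1957 and 1096 CPM against 374 and 722 CPM (log2 fold change -1.17, SE 0.46). Enah, which extends actin filaments at adhesions, measured 1223 and 886 CPM against 274 and 478 CPM, and Prdm16, a zinc finger transcription factor of arterial cells and other tissues, measured 612 and 420 CPM against 150 and 144 CPM. Stox2 measured 734 and 583 CPM against 249 and 244 CPM, and Fam20a, a pseudokinase of the secretory pathway, measured 734 and 350 CPM against 74.8 and 167 CPM. Rps6kb1, the S6 kinase downstream of mTOR, measured 489 and 489 CPM against 24.9 and 189 CPM. Fam135a (log2 fold change -1.89, SE 0.73) and the heparan sulfate proteoglycan gene Sdc2 (-1.51, SE 0.56) complete the 10 genes of smallest p on this side. Each of the 9 genes after Kcnma1 had an edgeR adjusted p of 0.979. In fibroblasts edgeR called Itga8 lower in cKO (log2 fold change -1.73, adjusted p = 0.0117) and Sdc2 as well (-0.97, adjusted p = 0.0446). Kcnma1 was called higher there, as given below, and the rest of the 10 were not called. Several of the differences in members were smaller in other choices of members. Members that met the pericyte requirement were 2 of 6 and 7 of 22 in control and 8 of 18 and 21 of 39 in cKO. Median UMIs per member were also higher in both cKO libraries (2074.5 and 2204) than in control (1270 and 1778.5). The part of depth in how many members met the requirement was not tested. A stricter choice left out every member with more than 1 UMI of the 6 pericyte genes. It kept 3 and 11 members in control and 9 and 12 in cKO. The log2 fold change was then -0.65 for Itga8, -0.54 for Sorbs2, -0.68 for Enah and -0.62 for Stox2. Without members of more than 1 fibroblast UMI it was -0.42 for Itga8 and -0.32 for Enah, while Kcnma1 stood at -2.25 and Sorbs2 at -1.01. With up to 20% mitochondrial UMIs, a choice made after the data were seen, the 10 genes ranged from -0.39 (Sorbs2) to -1.35 (Kcnma1). The part of pericyte and fibroblast RNA in these differences was not tested.

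Some of these genes were those of the Kcnma1 division. Among the 22 members with Kcnma1 UMIs, Sorbs2 measured 11249 and 8939 CPM in control and 5853 and 3816 CPM in cKO libraries. Itga8 measured 3616 and 2081 CPM against 1051 and 1383 CPM there, and Enah measured 1205 and 1655 CPM against 600 and 774 CPM. These 3 genes were picked from those lower in cKO, and among these 22 nuclei 156 of the 838 tested genes (18.6%) were lower in both cKO libraries than in both controls. Acta2 measured 2009 and 1608 CPM against 1951 and 1659 CPM. Among the 63 members without Kcnma1 UMIs the groups overlapped for Sorbs2 (3517 and 1379 CPM against 2003 and 2085 CPM), Itga8 (1231 and 138 CPM against 239 and 556 CPM) and Enah (1231 and 138 CPM against 209 and 403 CPM). The first of these sets has 2, 9, 4 and 7 nuclei by library, and since Kcnma1 both divided the nuclei and differed between the groups, these values carry no test.

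The 10 genes of smallest p on the other side also missed the threshold, each with an edgeR adjusted p of 0.979. Adamts12, a secreted metalloproteinase that cuts matrix proteins, had the smallest p of them at 122 and 93.2 CPM in control and 499 and 333 CPM in cKO members (log2 fold change 2.09, SE 0.67). Single nuclei held 13 of its 20 counts in cKO 1, 14 of its 30 in cKO 2 and all 4 in control 2. Trpc6, a receptor-operated cation channel that lets calcium into smooth muscle, measured 122 and 93.2 CPM against 548 and 278 CPM (log2 fold change 2.06, SE 0.71). Meg3, an imprinted noncoding RNA, measured 0 and 326 CPM against 748 and 800 CPM, with 34 of the 72 counts in cKO 2 in 1 nucleus. Nr3c2, the mineralocorticoid receptor, measured 245 and 140 CPM against 374 and 500 CPM (log2 fold change 1.53, SE 0.59). Kcnt2, a sodium-activated potassium channel, measured 122 and 140 CPM against 324 and 389 CPM. Abi1, which regulates actin branching, and the transcription factor Klf12 had log2 fold changes of 1.76 (SE 0.68) and 1.79 (SE 0.70), with 13 of the 29 counts of Abi1 in cKO 2 in 1 nucleus. Col8a1, a short-chain collagen of vessel walls, measured 0 and 163 CPM against 349 and 378 CPM, with 21 of its 34 counts in cKO 2 in 1 nucleus. Mgp, an inhibitor of arterial calcification, measured 245 and 140 CPM against 573 and 311 CPM, and Ccnd2, the cyclin D2 of G1 phase, measured 122 and 163 CPM against 499 and 311 CPM. All 10 genes lay higher in both cKO libraries than in both controls, on counts of 0 to 2 in control 1. Col8a1 and Mgp are fibroblast genes too, at means of 2523 and 1245 CPM in fibroblasts, where edgeR called both higher in cKO (log2 fold changes 1.30 and 1.13). Kcnt2 averaged 534 CPM in pericytes and 1173 CPM in fibroblasts, and Meg3 576 and 903 CPM. In pericytes Klf12 averaged 414, Adamts12 310, Abi1 269, Nr3c2 239, Ccnd2 200 and Trpc6 102 CPM. Trpc6 had a log2 fold change of 1.44 in pericytes (SE 0.35, edgeR adjusted p = 0.0742). The part of pericyte and fibroblast RNA in the values of members was not tested.

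**Figure D5:**
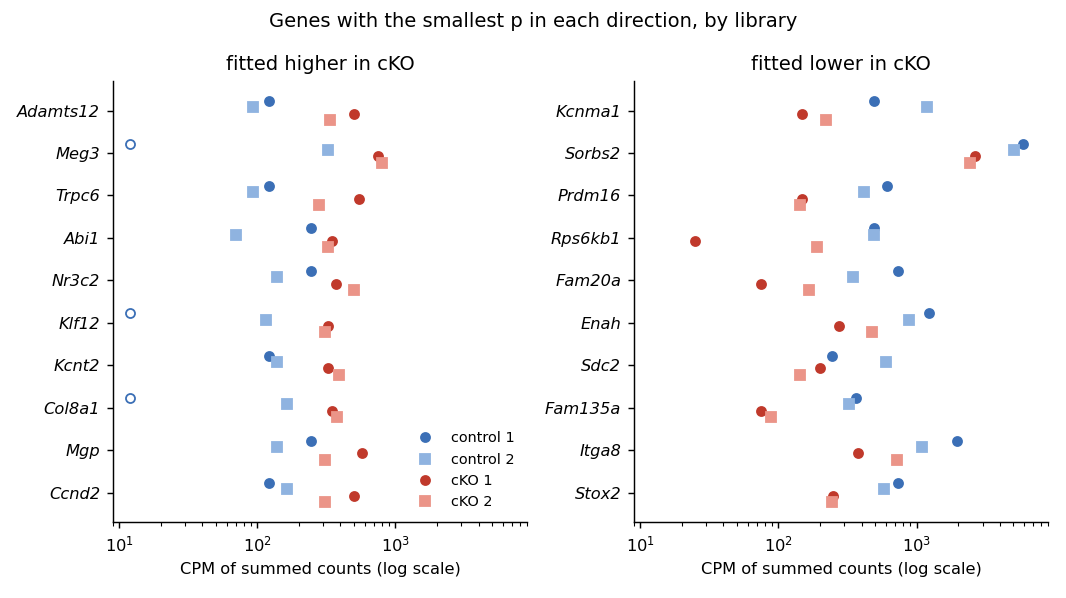
CPM in the summed smooth muscle nuclei of each library for the 10 genes of smallest p on each side, on a log axis; hollow symbols stand for no count. The groups do not overlap for any of the 20 genes, none of which passed the adjusted threshold; Kcnma1 has 489 and 1189 CPM in control and 150 and 222 CPM in cKO.

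Gene lists were read against the median log2 fold change of all 838 genes, 0.05, and no member of any list was called. Of 30 contractile genes outside the rule 21 were tested, 9 above and 12 below 0, with a median of -0.15, and 2 of them (Sorbs2 and Itga8) had an unadjusted p under 0.05. Other abundant members lay closer to 0. Ppp1r12a, the targeting subunit of myosin phosphatase, measured 3058 and 3496 CPM in control and 2592 and 2577 CPM in cKO members (log2 fold change -0.25, SE 0.31). The filamin gene Flna measured 2080 and 3240 CPM against 2318 and 2222 CPM, and Lpp, an adhesion protein, measured 1590 and 2494 CPM against 2368 and 2133 CPM, with overlapping groups for both. Mylk stood at -0.44 (SE 0.38). That list's median moved to 0.14 without cKO 1 and to 0.42 without control 2.

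Of 27 channel and calcium handling genes 15 were tested, with a median of 0.27 and 1 gene on each side at an unadjusted p under 0.05, Trpc6 and Kcnma1. The median was -0.11 without cKO 2 and 0.72 without control 2. Kcnab1 measured 3425 and 3660 CPM in control and 2692 and 3988 CPM in cKO members (log2 fold change 0.02, SE 0.31). Slc8a1, the sodium-calcium exchanger, stood at 0.30 (SE 0.37), Cacnb2, a calcium channel beta subunit, at 0.43 (SE 0.35), and Cacna1c, the L-type calcium channel through which smooth muscle is excited, at -0.03 (SE 0.41). Ano1 measured 612 and 583 CPM against 449 and 855 CPM. Among 30 receptors and signalling genes of vessel tone 17 were tested, with a median of 0.12, which ranged from -0.17 to 0.45 over the alternatives. Prkg1, the cGMP-dependent kinase that relaxes vessels in response to nitric oxide, measured 6239 and 8718 CPM against 7553 and 9166 CPM (log2 fold change 0.24, SE 0.26). Rock1, a kinase that keeps myosin phosphatase off, measured 3547 and 1445 CPM against 1047 and 1522 CPM, Gucy1a2, a subunit of the nitric oxide receptor, measured 2569 and 1772 CPM against 798 and 1733 CPM, and Pde3a, a cyclic nucleotide phosphodiesterase, measured 1223 and 2214 CPM against 1221 and 1966 CPM. The groups overlapped for Prkg1, Rock1 and Pde3a, and Gucy1a2 had a log2 fold change of -0.56 (SE 0.41).

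Of 32 matrix genes 9 were tested, 8 of them above 0 (451 of all 838 were), with a median of 0.91 and 2 genes (Col8a1 and Mgp) at an unadjusted p under 0.05. With members of more than 1 pericyte UMI left out, 4 genes of the list were tested, and the median was 0.31. Eln, the elastin of arterial walls, measured 245 and 583 CPM in control and 748 and 667 CPM in cKO members (log2 fold change 0.59, SE 0.48), and Col4a1, a basement membrane collagen, measured 367 and 303 CPM against 922 and 422 CPM (1.11, SE 0.57). Ltbp1, the exception, measured 1835 and 839 CPM against 648 and 444 CPM. The same list summed to 11937 and 10432 CPM in control fibroblasts and 27254 and 22696 CPM in cKO fibroblasts, and to 5388, 4282, 8895 and 6317 CPM in pericytes. After members with more than 1 fibroblast UMI were left out, 1 gene of the list was tested, at -0.14. With members of up to 20% mitochondrial UMIs, a choice made after the data were seen, edgeR called Col1a1 (3.71, adjusted p = 0.00585) and Col3a1 (2.38, adjusted p = 0.0463) higher in cKO, both of them main fibroblast collagens; at 5% Col1a1 had 0 and 3 counts in control and 6 and 13 in cKO members.

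Regulators of smooth muscle fate had 7 of 20 genes tested and a median of 0.26. That median was -0.69 without members of more than 1 pericyte UMI (3 genes tested) and 0.69 without control 2. Zeb2 measured 1101 and 1399 CPM in control and 1122 and 1411 CPM in cKO members, and the myocyte enhancer factors Mef2c and Mef2a had log2 fold changes of 0.26 (SE 0.46) and 0.64 (SE 0.51). In the Notch list 3 of 14 genes were tested: Notch3 measured 1713 and 862 CPM against 2094 and 1589 CPM (0.81, SE 0.42), and its coactivators Maml2 and Maml3 stood at 0.56 (SE 0.44) and -0.78 (SE 0.47). Among 21 TGF-beta and BMP genes 3 were tested, with Bmpr1a, a BMP receptor, at -0.84 (SE 0.56), Tgfbr3, betaglycan, at -0.86 (SE 0.52) and Ccn2, a matricellular target, at 0.73 (SE 0.79). For the synthetic state, the matrix-making form of smooth muscle, only Dcn of 16 genes was tested (-0.40, SE 0.88), and 12 of the 16 had any count. Stat3, Nfkb1 and Il6st were the tested inflammation genes, at -0.53, 0.11 and 0.67. Zbtb16, a glucocorticoid target, stood at -0.81 (SE 0.45), with Errfi1 and Klf9 at 0.10 and -0.10. B2m of the interferon list and Tef of the clock list stood at -0.21 and -0.69. No immediate early, heat shock or cell cycle gene had enough counts to be tested. The depth of these sums leaves most of these genes with wide errors, and a gene without a call cannot be read as unchanged.

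Cell cycle RNA came from a single nucleus. A member in cKO 1 with 3990 UMIs held 35 counts of the 10 cell cycle genes, and the other 84 members held 5 together. Top2a, the topoisomerase of dividing chromosomes, gave 17 counts and the proliferation marker Mki67 11, all in 1 nucleus. Apoe, an apolipoprotein of macrophages and other stromal cells, gave 0 and 2 counts in control and 30 and 7 in cKO members, with 22 of the 30 in 1 nucleus of cKO 1.

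The response of smooth muscle nuclei was set against that of 1171 pericytes and 3643 fibroblasts of the same libraries with an interaction term in edgeR. No gene was called as responding differently from pericytes (0.0% of 4362 tested, with 144 at an unadjusted p under 0.05). With so few members, a gene without a call cannot be read as responding alike. Against fibroblasts 1 gene was called (0.013% of 7706), Kcnma1, with a difference in log2 fold change of -3.66 (SE 0.75, adjusted p = 0.00834). Fibroblasts held 10.6 and 12.3 CPM of Kcnma1 in control and 40.9 and 36.6 CPM in cKO libraries, a log2 fold change of 1.64 (SE 0.34, edgeR adjusted p = 0.0111). Relative to the controls, Kcnma1 was lower in both cKO libraries in smooth muscle nuclei and higher in both in fibroblasts. Its level in fibroblasts was below that in smooth muscle nuclei in each library. Leaving out control 2, cKO 1 or cKO 2 ended this call, with 0 genes of smaller response each time, and leaving out control 1 raised their number to 5. Postn, the matricellular periostin of activated fibroblasts, had a fibroblast log2 fold change of 4.36 and 1, 5, 9 and 4 counts in members, and its difference of -4.25 (SE 1.13) had an edgeR adjusted p of 0.283. Nox4, an oxidase that makes hydrogen peroxide, measured 367 and 326 CPM in control and 49.9 and 233 CPM in cKO members (log2 fold change -0.95, SE 0.66), against 2.38 in fibroblasts, and its difference of -3.17 (SE 0.81) had an adjusted p of 0.283 as well.

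The promoters of the markers were looked up in RefSeq windows of 300 bases (250 before to 50 after the start, GRCm38.p6). Windows of Acta2, Lmod1 and Cnn1 were matched. None of the 3 held an exact match to the consensus CArG box, the site of serum response factor, while 1.63% of 32851 windows did. The search covered both strands, since the consensus is its own reverse complement. The Acta2 window holds ccctatatgg and ccttgtttgg, which each depart from the consensus at a single base. Near matches were not counted in any window, so sites of that kind were not assessed.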

How the data were processed

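Single-nucleus libraries of 2 control and 2 cKO pools were used as the authors deposited them, as UMI counts per gene and nucleus, and the submitters' processing notes name build mm10. No source used here names the aligner or the counter. Members and gene lists were chosen with earlier results of these data known. Counts of members were summed per library and tested in R 4.3.3 with edgeR 4.0.16 (TMM factors, expression filter, quasi-likelihood test, no block), and DESeq2 1.42.0 served as an alternative. Shares were compared over libraries by exact permutation in scipy 1.17.1. CPM are summed counts scaled to a common total per library. Pericytes and fibroblasts needed 3 UMIs from 2 of 6 genes each and under 3% cardiomyocyte UMIs. Cardiomyocyte-rich nuclei were taken at 3%, since only 29 nuclei reached the 10% first intended. Doublets were kept in the main test and the 6% highest Scrublet scores removed in an alternative; 1 member was among them. Named genes were, since none passed, the 10 of smallest p in each direction, and the 2 to 4 most abundant tested genes of each list. Coordinates are GENCODE M21 on GRCm38, with all 26 named genes matched. The scripts were tested on simulated data.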

Additional observations from a re-analysis of the deposited data

Results flagged for a closer look

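Kcnma1 was the result set apart by a test of a difference between nuclei types: its response in smooth muscle nuclei minus that in fibroblasts was -3.66 on the log2 scale (SE 0.75, edgeR adjusted p = 0.00834). It rests on 4, 51, 6 and 20 counts in control 1, control 2, cKO 1 and cKO 2, and leaving out control 2 or either cKO library ended the call.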

How the results depend on the processing

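The groups hold 2 libraries each, and 838 genes passed the expression filter. Genes called higher in cKO numbered 0 in the main test, 1 without cKO 2 (Apoe, 22 of its 30 counts in cKO 1 in 1 nucleus) and 2 with up to 20% mitochondrial UMIs, an alternative added after the data were seen. Leaving out each library in turn gave 0 to 1 genes called higher and 0 to 1 called lower (Kcnma1, without control 1). Genes called lower numbered 2 with a replicate block (Sorbs2 and Kcnma1, adjusted p = 0.0318 each in the paired fit) and 1 after removal of likely doublets (Kcnma1, adjusted p = 0.0282). That removal took out 1 member, of control 1. Replicate numbers 1 and 2 are not said to mark a shared batch, and deviations of same-numbered libraries correlated at 0.104, over 2 pairs only. Against fibroblasts, genes with a smaller response numbered 2 with RLE factors and 0 to 5 with libraries left out, and genes with a larger response 0 to 1; against pericytes the latter numbered 0 to 1. The log2 ratio of shares of smooth muscle nuclei was positive in each alternative that gave one, from 0.54 to 1.31 with libraries left out, but was -0.38 for members and pericytes together; with at most 1% mitochondrial UMIs control 1 had no member (0 of 469 nuclei, upper limit of the exact interval 0.783%) and no ratio was formed. Of 264 values of the 20 named genes under alternatives, 260 kept direction and side of the threshold, 4 passed it and 0 changed sign. The 20 genes were chosen for the smallest p in these same counts, and the alternatives reuse the same libraries. Their kept signs are therefore no independent check. A gene has a value only where it passed the filter, in 11 to 17 alternatives. Of 179 list medians, 48 moved by more than the spread between replicates, and the cause was not tested.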
